A study of Mus musculus with 19 samples.

Results

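Amino acid transporters carry amino acids across the membranes of cells. The group described here is a fixed list of 9 transporter genes, namely Slc7a5, Slc3a2, Slc7a11, Slc7a7, Slc7a8, Slc1a5, Slc38a1, Slc38a2 and Slc7a2, out of 33919 gene identifiers in the expression table. The list was given by gene name, without a threshold on any measured value, but it was chosen with earlier results of these data known. All 9 were found, and all 9 passed the filter on low values, which asked for at least 10 normalised reads in at least 6 libraries. Slc7a11 passed it through the MCD_MoKCs libraries, and Slc7a5 through the libraries of both MCD groups, so a difference from the groups where these genes are low was built into their passing.

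The measurements come from RNA sequencing of Kupffer cells, the macrophages that line the liver sinusoids. Cells were sorted from female mice of the C57BL/6 strain, whose age the labels do not give. MCD_MoKCs (7 libraries) are CLEC2+ TIMD4- cells, named as monocyte-derived Kupffer cells, from mice on the MCD diet for 4 weeks. MCD_EmKCs (6 libraries) are CLEC2+ TIMD4+ cells, named as embryo-derived Kupffer cells, from mice on the same diet. Chow_EmKCs (6 libraries) are embryo-derived Kupffer cells from mice on chow, for which the labels give no feeding time. The mice are described as wild-type, so no allele, transgene or Cre separates the groups. Origin was assigned by the surface gate and not by lineage tracing in these labels, and there is no MoKC group on chow. The MCD diet lacks methionine and choline and is a standard mouse model of steatohepatitis. The labels do not say whether each library is a separate animal. The p-values therefore measure the spread between libraries, which may be technical.

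Several of these proteins work as pairs. Slc3a2 encodes the heavy chain, also called CD98 or 4F2hc, which brings a light chain of the Slc7 family to the cell surface, and the light chain sets what is carried. Light chains of this kind include Slc7a5 (LAT1) and Slc7a8 (LAT2) for large neutral amino acids, Slc7a7 (y+LAT1) for export of cationic amino acids in exchange for neutral ones, and Slc7a11 (xCT), which takes up cystine in exchange for glutamate. The other members work without a heavy chain: Slc1a5 (ASCT2) exchanges neutral amino acids including glutamine, Slc38a1 (SNAT1) and Slc38a2 (SNAT2) take up neutral amino acids with sodium, and Slc7a2 (CAT2) takes up cationic amino acids such as arginine. In macrophages, cystine is used for glutathione, and arginine is the substrate of nitric oxide synthase and arginase.

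Values are normalised reads, that is, the reads of a gene after division by the size factor of its library. Total reads per library were 11642240 to 30983487, and 14643 to 16847 genes had a read. The gate gene Timd4 averaged 400.2 normalised reads in MCD_MoKCs, 7491 in MCD_EmKCs and 10586 in Chow_EmKCs, and Clec1b, which encodes CLEC2, averaged 5140 in MCD_MoKCs, 7000.3 in MCD_EmKCs and 6605 in Chow_EmKCs. All 8 Kupffer cell markers and all 4 macrophage markers had reads in every group. Some libraries stood apart from others of their group. Principal component 3 ran from 38.4 to 86.9 in MCD_MoKCs 1 to 3 and from -75.5 to -25.8 in MCD_MoKCs 4 to 7. Component 2 ran from 70.6 to 142 in MCD_EmKCs 1 and 2 and from 13.9 to 30.5 in MCD_EmKCs 3 to 6. The library numbers in the labels also fall into a set up to 33 and a set from 37, and both sets hold libraries of every group. What these numbers stand for is not stated.

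In MCD_EmKCs against Chow_EmKCs, which asks what the diet did to embryo-derived cells, 3 of the 9 transporters rose: Slc7a5, Slc7a11 and the heavy chain Slc3a2. None was called lower by limma, edgeR or DESeq2, and none was lower at an unadjusted p under 0.05. Of the 14875 genes tested with limma, 4.08% were called in either direction, 2.5% higher and 1.58% lower. The median log2 fold change was 0.62 over the 9 transporters and -0.04 over all genes tested. The count and the median include Slc7a5, which passed the filter on low values through MCD libraries. They are therefore descriptions of a list chosen with earlier results known. In the 4 libraries MCD_EmKCs 3 to 6 alone, a choice made after seeing the data, 5 members were called. The shares of all genes above are of the main fit and do not apply to that setting. Each library is RNA of sorted cells in bulk, where fewer cells of a type and less RNA per cell cannot be told apart.

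In MCD_MoKCs against MCD_EmKCs, which sets cells of different origin side by side on the same diet, 2 of the 9 were higher, Slc7a11 and Slc1a5, and none was called lower by limma, edgeR or DESeq2. At an unadjusted limma p under 0.05, 3 were lower, Slc3a2, Slc7a7 and Slc7a8. Here 10.5% of genes tested were called, 5.64% higher and 4.9% lower in MCD_MoKCs. The median log2 fold change was 0.29 over the members and 0.02 over all genes tested. In MCD_MoKCs against Chow_EmKCs, where diet and origin both differ, 5 of the 9 were higher, namely Slc7a5, Slc7a11, Slc1a5, Slc38a2 and Slc7a2, and 1, Slc7a7, was lower. In that comparison 16.8% of genes were called, 8.68% higher and 8.08% lower, and the median log2 fold change was 1.04 over the members and -0.01 over all genes tested. Each group enters 2 of these comparisons, so the 3 sets of calls are not independent. Slc7a11, called in both comparisons here, passed the filter on low values through MCD_MoKCs libraries, and Slc7a5 through both MCD groups. Their calls against groups where they are low, and the counts and medians that include them, are therefore descriptions and no independent support.

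**Figure D1:**
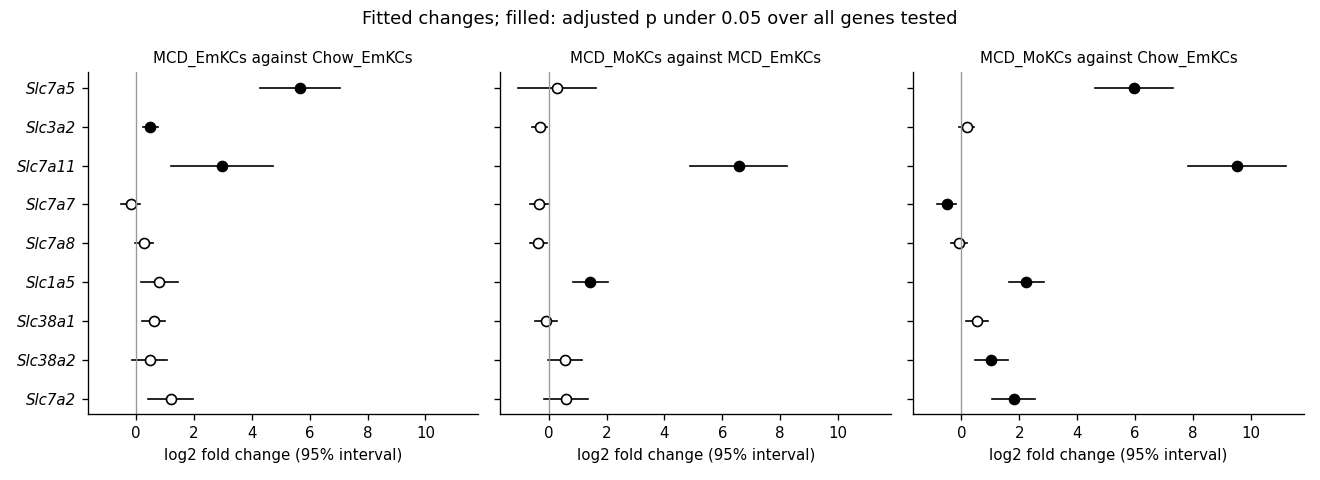
Fitted log2 fold change of each transporter (horizontal axis, log2 scale) with its 95% interval, in 1 panel per comparison; filled points passed an adjusted p of 0.05 over all genes tested. Slc7a5 stands at 5.66 in MCD_EmKCs and 5.96 in MCD_MoKCs, each against Chow_EmKCs, and Slc7a11 at 6.56 in MCD_MoKCs against MCD_EmKCs.

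The heavy chain Slc3a2 (ENSMUSG00000010095, chromosome 19, 8706882 to 8723369, minus strand, mm10) was the most abundant of the 9 transcripts per kb of exon. It lay between 8449 and 11995 normalised reads in MCD_MoKCs (median 10129), between 10265 and 14648 in MCD_EmKCs (median 12541) and between 7758 and 11912 in Chow_EmKCs (median 8409). The highest chow library, Chow_EmKCs 3, reached into the range of MCD_EmKCs, and the other 5 chow libraries lay below every MCD_EmKCs library.

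Slc3a2 rose by a log2 fold change of 0.50 in MCD_EmKCs against Chow_EmKCs (SE 0.13, limma adjusted p = 0.021), with means of 12556 ± 1583 and 8921 ± 1553 (SD, n = 6 and 6). That call was lost without Chow_EmKCs 1 (adjusted p = 0.0537), Chow_EmKCs 6 (0.0533), MCD_EmKCs 2 (0.0553) or MCD_EmKCs 4 (0.0598). In MCD_MoKCs against MCD_EmKCs its log2 fold change was -0.31 (95% interval -0.56 to -0.06, adjusted p = 0.109), and against Chow_EmKCs it was 0.19 (interval -0.07 to 0.44, adjusted p = 0.347). Neither passed the threshold.

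**Figure D2:**
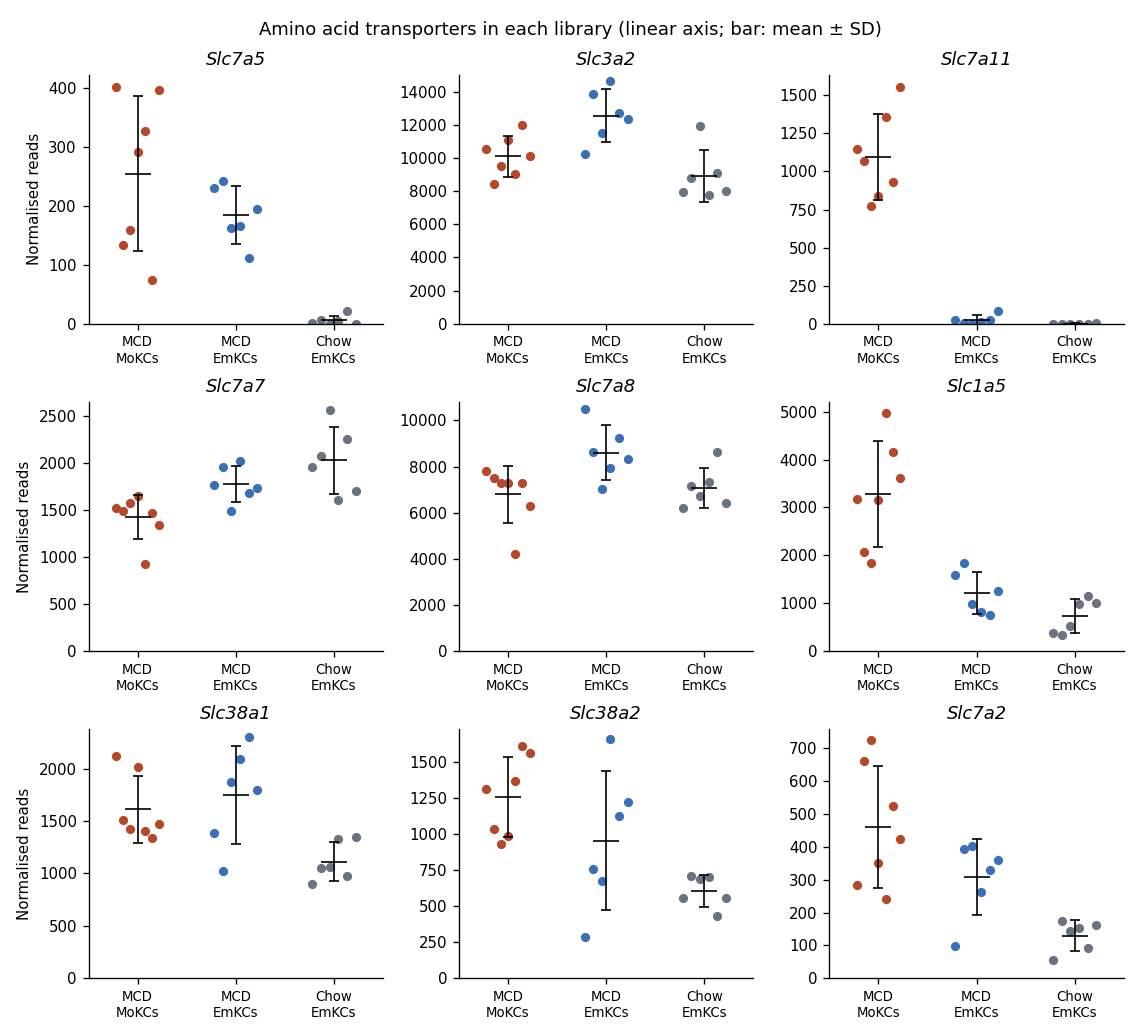
Normalised reads of each transporter in every library (vertical axis, linear, from 0), with 1 panel per gene and 1 point per library; black bars are the mean ± SD of the group (n = 7, 6 and 6). Slc7a5 is near 0 in Chow_EmKCs only, Slc7a11 is at 774 or more in MCD_MoKCs only, and the ranges of Slc7a8 overlap in all 3 groups.

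Slc7a5 (ENSMUSG00000040010, chromosome 8, 121881150 to 121907694, minus strand), the light chain for leucine and other large neutral amino acids, was almost silent on chow. It ranged from 73.8 to 402 normalised reads in MCD_MoKCs (median 291), from 111 to 243 in MCD_EmKCs (median 179.9) and from 0 to 21.9 in Chow_EmKCs (median 3.02). Every library of both MCD groups was above every chow library, while the ranges of the MCD groups overlapped. The 6 chow libraries held 38 reads of Slc7a5 in all, and 2 of them held none.

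Mean Slc7a5 was 32.4 times as high in MCD_EmKCs (184 ± 48.7, SD, n = 6) as in Chow_EmKCs (5.69 ± 8.36, n = 6). The fitted log2 fold change was 5.66 (SE 0.68, adjusted p = 3.65e-06 by limma), a value that depends on the pseudocount because some chow libraries are at 0. In MCD_MoKCs (255 ± 132, n = 7) the mean was 44.8 times that of Chow_EmKCs, with a log2 fold change of 5.96 (SE 0.65, adjusted p = 1.43e-07). Both ratios rest on a chow mean that Chow_EmKCs 5 carries: without it that mean was 2.45 and the ratios were 75.3 for MCD_EmKCs and 104 for MCD_MoKCs. Between MCD_MoKCs and MCD_EmKCs the log2 difference was 0.29, with a 95% interval of -1.05 to 1.63 (adjusted p = 0.847), so a difference in either direction lies within the interval.

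Slc7a5 varied more among MCD_MoKCs libraries than among MCD_EmKCs libraries. Its coefficient of variation was 51.9% in MCD_MoKCs, where libraries 2, 3 and 6 lay at 133, 159.9 and 73.8 and the other 4 between 291 and 402, and 26.4% in MCD_EmKCs. This difference in spread was not tested.

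Slc7a11 (ENSMUSG00000027737, chromosome 3, 49892526 to 50443614, minus strand), the cystine and glutamate exchanger, set MCD_MoKCs apart from both EmKC groups. Its lowest, median and highest values were 774, 1069 and 1556 normalised reads in MCD_MoKCs, 0, 16.4 and 85.7 in MCD_EmKCs, and 0, 0 and 8.17 in Chow_EmKCs. All 7 MCD_MoKCs libraries lay above all 12 EmKC libraries, and MCD_EmKCs and Chow_EmKCs overlapped.

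Over the group, Slc7a11 had 165 reads in MCD_EmKCs, with 1 library at 0, and 7 reads in Chow_EmKCs, all of them in Chow_EmKCs 6. Mean Slc7a11 was 1096 ± 283 in MCD_MoKCs (SD, n = 7), 44.4 times the 24.6 ± 31.8 of MCD_EmKCs (n = 6), with a log2 fold change of 6.56 (SE 0.82, adjusted p = 2.56e-06 by limma). Without MCD_EmKCs 6, the highest of its group, the MCD_EmKCs mean was 12.4 and the ratio 88.1. Against Chow_EmKCs, at 1.36 ± 3.34 (n = 6), the ratio was 804 and the log2 fold change 9.53 (SE 0.82, adjusted p = 2.11e-09). That ratio rests on the 7 reads of 1 chow library.

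The smaller rise of Slc7a11 in MCD_EmKCs against Chow_EmKCs had a log2 fold change of 2.97 (SE 0.85, adjusted p = 0.046 by limma) and a ratio of means of 18.1, or 9.13 without MCD_EmKCs 6. This call depended on single libraries and on settings. It was lost without any 1 of Chow_EmKCs 1 to 5 (adjusted p from 0.0724 to 0.0867) and without MCD_EmKCs 1, 4, 5 or 6 (from 0.0738 to 0.13). It was also lost with a pseudocount of 5 (log2 fold change 1.68, adjusted p = 0.0953), without the filter on low values (0.0628) and in a fit of only these 2 groups (0.179), while edgeR on the recovered reads kept it (4.31, adjusted p = 0.0222).

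Because Slc7a11 is the member whose level differs most between groups, the sequence before its start is shown with those of its heavy chain Slc3a2 and of Slc7a8, the most abundant light chain. RefSeq (GRCm38.p6) gave a promoter window for 5 of the 9 members: Slc3a2, Slc7a11, Slc7a7, Slc7a8 and Slc38a2. Each line below holds the 250 bases before the RefSeq start, 5′ to 3′ on the strand of the gene, in lower case. The windows are chr3:50443614-50443863 for Slc7a11, chr19:8713898-8714147 for Slc3a2 and chr14:54781887-54782136 for Slc7a8, all for genes on the minus strand. Capitals mark matches on either strand to the C/EBP-ATF response element, searched as TGATGNAAN, or to the antioxidant response element, searched as TGANNNNGC.
Slc7a11: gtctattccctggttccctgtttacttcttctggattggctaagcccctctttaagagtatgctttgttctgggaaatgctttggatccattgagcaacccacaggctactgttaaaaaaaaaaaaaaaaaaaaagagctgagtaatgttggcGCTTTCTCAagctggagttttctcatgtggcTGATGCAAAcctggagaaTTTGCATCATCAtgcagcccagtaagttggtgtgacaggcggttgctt
Slc3a2: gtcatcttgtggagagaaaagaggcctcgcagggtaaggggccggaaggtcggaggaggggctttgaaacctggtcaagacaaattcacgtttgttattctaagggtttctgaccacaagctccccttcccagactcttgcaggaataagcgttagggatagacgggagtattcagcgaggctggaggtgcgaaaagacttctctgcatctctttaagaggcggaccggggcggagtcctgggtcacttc
Slc7a8: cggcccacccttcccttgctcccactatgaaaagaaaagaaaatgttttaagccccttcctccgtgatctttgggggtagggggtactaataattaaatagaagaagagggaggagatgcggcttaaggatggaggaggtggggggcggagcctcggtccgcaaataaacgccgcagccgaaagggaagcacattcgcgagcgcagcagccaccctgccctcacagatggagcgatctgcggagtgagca

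The Slc7a11 window held 2 matches to the C/EBP-ATF element, as TGATGCAAA at bases 66 to 58 before the start and, on the opposite strand, as TTTGCATCA at bases 48 to 40. Of 32851 RefSeq windows of this length, 3.44% held at least 1 match and 0.04%, or 13 windows, held 2 or more. It also held 2 matches to the antioxidant element, GCTTTCTCA at bases 97 to 89 and GCATCATCA at bases 45 to 37, both on the opposite strand, and the second overlaps the second C/EBP-ATF match. The antioxidant letters are common, with 35.2% of windows holding 1 match or more and 7.03% holding 2 or more. No match to either was found in the Slc3a2 and Slc7a8 windows. The Slc3a2 window lies inside the annotated gene, whose outer start on the minus strand is at 8723369. The sequence before that outer start was not searched. The Slc38a2 window held 1 antioxidant match, and Slc7a7 had 5 windows, of which 2 held a C/EBP-ATF match and 3 an antioxidant match. These matches are descriptions of letters and not of bound factors.

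Slc7a7 (ENSMUSG00000000958, chromosome 14, 54369442 to 54417780, minus strand), the exporter of cationic amino acids, ran the other way. It ranged from 929 to 1656 normalised reads in MCD_MoKCs (median 1494), from 1496 to 2025 in MCD_EmKCs (median 1755) and from 1606 to 2572 in Chow_EmKCs (median 2019). The ranges of neighbouring groups overlapped, and MCD_MoKCs 4 alone lay above the lowest chow library.

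In MCD_MoKCs (1428 ± 239.6, SD, n = 7) Slc7a7 was lower than in Chow_EmKCs (2031 ± 357, n = 6), by a log2 fold change of -0.51 (SE 0.16, adjusted p = 0.0244 by limma). The call was lost without Chow_EmKCs 3 (0.0696), Chow_EmKCs 5 (0.0567) or MCD_MoKCs 5 (0.0638). The differences of MCD_EmKCs from Chow_EmKCs (-0.18, adjusted p = 0.648) and of MCD_MoKCs from MCD_EmKCs (-0.33, adjusted p = 0.205) did not pass. Slc7a7 overlaps Oxa1l, a mitochondrial membrane protein gene on the plus strand that averaged 451 normalised reads, and whether reads were counted by strand is not given in the sources used here.

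Slc7a8 (ENSMUSG00000022180, chromosome 14, 54722209 to 54781946, minus strand), the light chain that also carries large neutral amino acids, passed in none of the 3 comparisons. It lies 304.4 kb from Slc7a7 on the same strand. Its range was 4212 to 7784 normalised reads in MCD_MoKCs (median 7278), 7005 to 10484 in MCD_EmKCs (median 8466) and 6189 to 8636 in Chow_EmKCs (median 6933), with overlap in all 3 groups. The log2 fold changes were 0.28 in MCD_EmKCs against Chow_EmKCs (95% interval -0.02 to 0.58), -0.35 in MCD_MoKCs against MCD_EmKCs (-0.64 to -0.07) and -0.07 in MCD_MoKCs against Chow_EmKCs (-0.36 to 0.21), with limma adjusted p of 0.346, 0.111 and 0.79. MCD_MoKCs 5 was the lowest library of its group for both Slc7a7 and Slc7a8, and without it the log2 fold change of Slc7a8 in MCD_MoKCs against Chow_EmKCs was 0.04, which did not pass either.

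To set the light chains beside the heavy chain, reads were divided by the merged exon length of each gene and given per kb. That length covers all annotated exons, 13922 bases for Slc7a11 and 3315 for Slc7a7. Which exons these cells use was not tested, so levels, shares and ranks per kb depend on the annotation. The 6 Slc7 light chains known to pair with Slc3a2 were summed, namely Slc7a5, Slc7a6, Slc7a7, Slc7a8, Slc7a10 and Slc7a11. Their summed level was 0.704 ± 0.114 of the Slc3a2 level in MCD_MoKCs (SD, n = 7), 0.669 ± 0.136 in MCD_EmKCs (n = 6) and 0.820 ± 0.107 in Chow_EmKCs (n = 6). Slc3a2 per kb was above the sum of its light chains in every library, and the ranges of this ratio overlapped in all groups.

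Slc7a8 and Slc7a7 made up most of that sum everywhere. Slc7a8 was 67.6 ± 3.87% of the summed light chain level in MCD_MoKCs, 73.3 ± 2.87% in MCD_EmKCs and 69.2 ± 4.03% in Chow_EmKCs. Slc7a7 was 21.5 ± 1.13%, 23.0 ± 2.56% and 29.96 ± 3.95% in the same order. By this measure, the light chains that rose were a small part of the pool. Slc7a5 was 3.57 ± 2.06% in MCD_MoKCs, 2.13 ± 0.496% in MCD_EmKCs and 0.0678 ± 0.0923% in Chow_EmKCs. Slc7a11 was 4.11 ± 1.64% in MCD_MoKCs, 0.0752 ± 0.101% in MCD_EmKCs and 0.00542 ± 0.0133% in Chow_EmKCs. These are shares of transcript and say nothing of the amount or activity of protein.

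**Figure D3:**
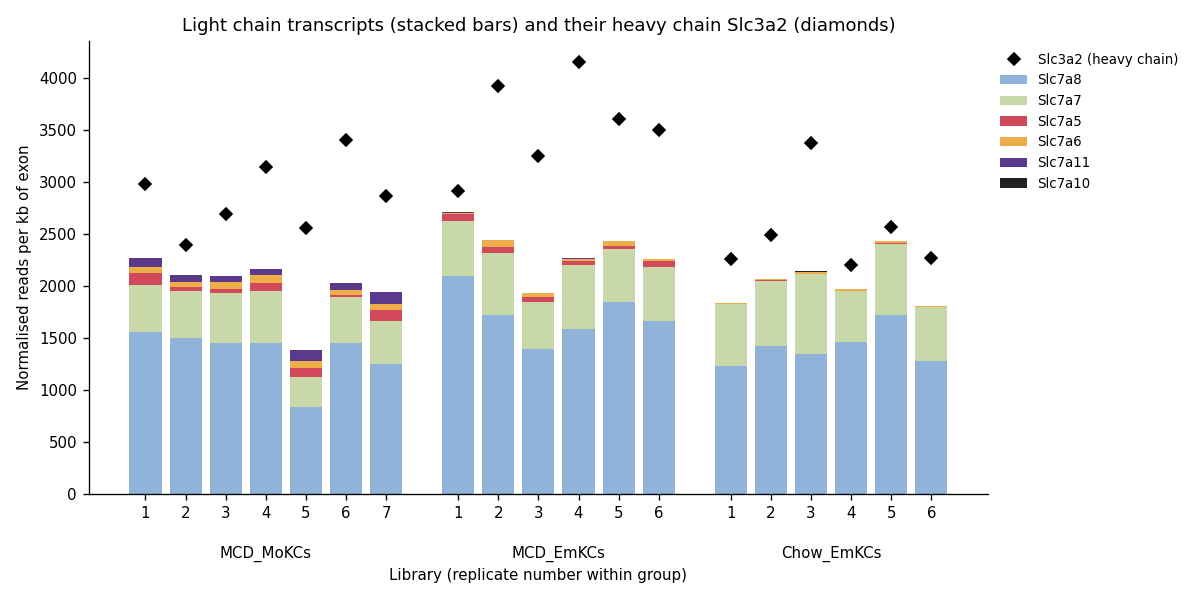
Stacked bars give the normalised reads per kb of exon of the light chain transcripts in each library (vertical axis, linear), and diamonds give the heavy chain Slc3a2 on the same scale. Slc7a8 and Slc7a7 fill most of each bar, Slc7a5 is visible in the MCD groups and Slc7a11 in MCD_MoKCs, and each diamond lies above its bar.

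Slc1a5 (ENSMUSG00000001918, chromosome 7, 16781340 to 16798274, plus strand), an exchanger of glutamine and other neutral amino acids, was highest in MCD_MoKCs. It ranged from 1835 to 4969.6 normalised reads in MCD_MoKCs (median 3169.9), from 758 to 1828 in MCD_EmKCs (median 1119.6) and from 339 to 1144 in Chow_EmKCs (median 757). Every MCD_MoKCs library lay above every EmKC library, by a narrow margin at 1835 against 1828, and MCD_EmKCs overlapped Chow_EmKCs.

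Mean Slc1a5 was 3281 ± 1103 in MCD_MoKCs (SD, n = 7), 2.72 times the 1206 ± 436 of MCD_EmKCs (n = 6), with a log2 fold change of 1.45 (SE 0.30, adjusted p = 0.00157 by limma). It was 4.49 times the 731 ± 354 of Chow_EmKCs (n = 6), with a log2 fold change of 2.25 (SE 0.30, adjusted p = 3.27e-06). MCD_EmKCs against Chow_EmKCs gave 0.81 (95% interval 0.17 to 1.44, adjusted p = 0.167), which did not pass.

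The pooled values of Slc1a5 hide a split by library number, which was clean in Chow_EmKCs but not in MCD_EmKCs. Of the first set, MCD_EmKCs 1 and 2 lay at 1596 and 1828, and MCD_EmKCs 3 at 976. The last value is inside the 758 to 1264 of the MCD_EmKCs libraries from 37. MCD_EmKCs 1 and 2 also stood apart on component 2, so the MCD_EmKCs values of the first set rest largely on them. Among numbers up to 33, Slc1a5 averaged 3042 in MCD_MoKCs, 1467 in MCD_EmKCs and 417 in Chow_EmKCs. Among numbers from 37 the means were 3879.7 in MCD_MoKCs, 946 in MCD_EmKCs and 1045 in Chow_EmKCs. MCD_EmKCs thus stood above Chow_EmKCs in the first set (log2 fold change 1.79, limma adjusted p = 0.0132) but not in the second (-0.18, adjusted p = 0.789). MCD_MoKCs against MCD_EmKCs gave 1.01 (adjusted p = 0.0682) in the first set and 2.07 (adjusted p = 0.000462) in the second, and MCD_MoKCs against Chow_EmKCs gave 2.80 and 1.89. The second set holds only 2 MCD_MoKCs libraries.

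**Figure D4:**
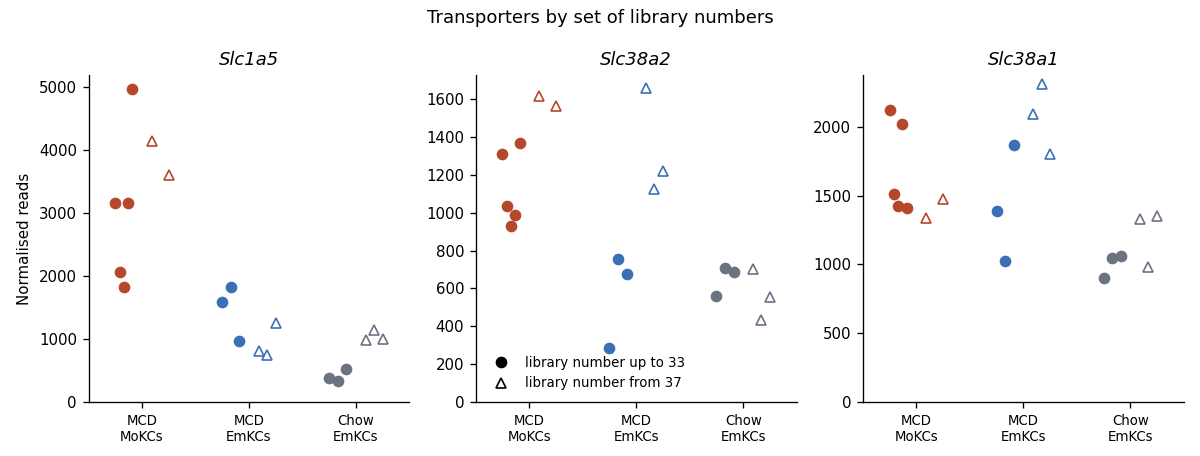
Normalised reads (vertical axis, linear, from 0) of Slc1a5, Slc38a2 and Slc38a1 in each library, with filled circles for library numbers up to 33 and open triangles for numbers from 37. For Slc1a5 the chow libraries up to 33 lie below those from 37, while in MCD_EmKCs the set means run the other way, at 1467 and 946.

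Slc38a2 (ENSMUSG00000022462, chromosome 15, 96687392 to 96699730, minus strand), the sodium-coupled transporter SNAT2, had 930 to 1613 normalised reads in MCD_MoKCs (median 1309.8), 285 to 1658 in MCD_EmKCs (median 941) and 431 to 709 in Chow_EmKCs (median 623). All MCD_MoKCs libraries lay above all chow libraries, and MCD_EmKCs spanned the range of both. In MCD_MoKCs (1257 ± 278, SD, n = 7) the log2 fold change against Chow_EmKCs (607 ± 111, n = 6) was 1.04 (SE 0.28, limma adjusted p = 0.0101).

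MCD_EmKCs, at 953 ± 482 (n = 6), did not differ from Chow_EmKCs past the threshold in Slc38a2 (0.48, 95% interval -0.13 to 1.08, adjusted p = 0.46), nor did MCD_MoKCs from MCD_EmKCs (0.57, -0.02 to 1.15, adjusted p = 0.231). For Slc38a2 the MCD_EmKCs libraries did split by library number. Slc38a2 averaged 572 in the MCD_EmKCs libraries of the first set and 1334 in those of the second, against chow means of 652 and 563. The log2 fold change of MCD_EmKCs against Chow_EmKCs was -0.30 in the first set (adjusted p = 0.772) and 1.25 in the second (adjusted p = 0.0251). MCD_MoKCs against Chow_EmKCs gave 0.78 (adjusted p = 0.161) and 1.52 (adjusted p = 0.00431).

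Slc38a1 (ENSMUSG00000023169, chromosome 15, 96571418 to 96642913, minus strand), the sodium-coupled transporter SNAT1, lies 44.5 kb from Slc38a2 and passed in none of the 3 comparisons. Its range was 1336 to 2119 normalised reads in MCD_MoKCs (median 1475), 1028 to 2307 in MCD_EmKCs (median 1835) and 902 to 1352 in Chow_EmKCs (median 1055). Only 1 of the 7 MCD_MoKCs libraries fell inside the chow range, by a small margin, and MCD_EmKCs 2 did too.

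The fitted log2 fold change of Slc38a1 was 0.53 in MCD_MoKCs against Chow_EmKCs (95% interval 0.15 to 0.91, limma adjusted p = 0.0502) and 0.62 in MCD_EmKCs against Chow_EmKCs (0.22 to 1.02, adjusted p = 0.0705). The first fell under the threshold without Chow_EmKCs 4 (0.0432), Chow_EmKCs 6 (0.0418) or MCD_MoKCs 6 (0.0444), and the second without MCD_EmKCs 2 (0.0165). DESeq2 called both, at 0.0353 and 0.0257. Between MCD_MoKCs and MCD_EmKCs the value was -0.09 (interval -0.47 to 0.29, adjusted p = 0.836), and its sign differed between the sets of library numbers, at 0.27 up to 33 and -0.55 from 37.

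Slc7a2 (ENSMUSG00000031596, chromosome 8, 40862396 to 40922308, plus strand), the cationic amino acid transporter CAT2, had the lowest level per kb on chow after Slc7a5 and Slc7a11. It ranged from 242 to 725 normalised reads in MCD_MoKCs (median 426), from 97.0 to 404 in MCD_EmKCs (median 346) and from 55.4 to 174 in Chow_EmKCs (median 148). Every MCD_MoKCs library was above every chow library. Of the 6 MCD_EmKCs libraries, 5 were above all of chow, and MCD_EmKCs 1 was not.

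Mean Slc7a2 was 459 ± 186 in MCD_MoKCs (SD, n = 7) and 130.0 ± 46.4 in Chow_EmKCs (n = 6), a ratio of 3.53 and a log2 fold change of 1.81 (SE 0.36, adjusted p = 0.000672 by limma). In MCD_EmKCs it was 308 ± 115 (n = 6), with a log2 fold change of 1.20 against Chow_EmKCs (95% interval 0.42 to 1.98, adjusted p = 0.0739). That value passed without MCD_EmKCs 1 (0.0112) and in DESeq2 (0.0162). MCD_MoKCs against MCD_EmKCs gave 0.60 (interval -0.15 to 1.36, adjusted p = 0.344).

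Across the sets of library numbers the other calls against Chow_EmKCs kept their direction. Slc7a5 in MCD_EmKCs against Chow_EmKCs was at 6.43 (limma adjusted p = 0.000316) up to 33 and 4.90 (adjusted p = 0.0337) from 37. In MCD_MoKCs against Chow_EmKCs, Slc7a2 was at 1.87 (adjusted p = 0.047) and 1.84 (adjusted p = 0.0156). Slc3a2 in MCD_EmKCs against Chow_EmKCs was at 0.32 (adjusted p = 0.505) and 0.68 (adjusted p = 0.0347). Slc7a11 in MCD_EmKCs against Chow_EmKCs passed in neither set, at 2.06 (adjusted p = 0.436) and 3.87 (adjusted p = 0.102), while its difference between MCD_MoKCs and MCD_EmKCs was 7.93 and 5.29. Slc7a7 in MCD_MoKCs against Chow_EmKCs passed in neither, at -0.64 (adjusted p = 0.112) and -0.38 (adjusted p = 0.381).

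Ranked by mean level per kb of exon, Slc3a2 came first and Slc7a8 second in all 3 groups. Slc3a2 was at 2864 ± 347 normalised reads per kb in MCD_MoKCs, 3558 ± 449 in MCD_EmKCs and 2528 ± 440.1 in Chow_EmKCs (SD, n = 7, 6 and 6). Slc7a8 was at 1359 ± 246, 1719 ± 237 and 1414 ± 175 in the same order. The library ranges of these 2 genes did not overlap within any group.

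The third place differed. In MCD_MoKCs it was held by Slc1a5 (786 ± 264 per kb), with Slc7a7 next (431 ± 72.3), and their ranges overlapped. In MCD_EmKCs and Chow_EmKCs it was held by Slc7a7, at 537 ± 58.2 and 613 ± 108 per kb, clear of Slc1a5 at 289 ± 104 and 175 ± 84.8. Slc38a2 and Slc38a1 followed in every group and overlapped each other, at 142 and 93.6 per kb in MCD_MoKCs, 108 and 101 in MCD_EmKCs, and 68.7 and 64.5 in Chow_EmKCs. Last in MCD_MoKCs were Slc7a11, Slc7a5 and Slc7a2, at 78.7, 68.8 and 50.3 per kb, each overlapping its neighbour. In MCD_EmKCs, Slc7a11 was last at 1.77 per kb, below the range of Slc7a2. In Chow_EmKCs, Slc7a2 (14.2 per kb) stood clear of Slc7a5 (1.53) and Slc7a11 (0.0978), whose ranges overlapped.

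Other transporters were taken from lists chosen by function. Of 23 other amino acid transporters of the plasma membrane, 13 were tested. In MCD_EmKCs against Chow_EmKCs limma called none, with 3 higher and 1 lower at an unadjusted p under 0.05, while edgeR called 1 and DESeq2 called 2, all higher. In MCD_MoKCs against MCD_EmKCs 2 were lower, the glutamate transporters Slc1a2 and Slc1a3. In MCD_MoKCs against Chow_EmKCs 3 were higher and 2 lower. Over all genes tested, limma called 2.5% higher and 1.58% lower in the first of these comparisons. The shares were 5.64% and 4.9% in the second, and 8.68% and 8.08% in the third. The list's median log2 fold changes were 0.10, 0.14 and 0.24 in these comparisons. Those of all genes tested were -0.04, 0.02 and -0.01, and these shares and medians also stand beside the lists below.

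Slc1a3, the glutamate transporter GLAST, averaged 25.8 ± 27.3 normalised reads in MCD_MoKCs (SD, n = 7), 452 ± 148 in MCD_EmKCs and 419.7 ± 124 in Chow_EmKCs (n = 6 each). No MCD_MoKCs library reached the EmKC range, and the log2 fold change was -5.00 against MCD_EmKCs (SE 0.69, limma adjusted p = 1.04e-05) and -4.89 against Chow_EmKCs (adjusted p = 7.75e-06). Slc1a2, the glutamate transporter GLT-1, averaged 94.9 ± 54.9 in MCD_MoKCs, 443 ± 136 in MCD_EmKCs and 610.0 ± 171 in Chow_EmKCs, also without overlap. Its log2 fold change was -2.98 against MCD_EmKCs (adjusted p = 0.0272), a call lost without MCD_EmKCs 1 (0.0556) or MCD_EmKCs 3 (0.0529), and -3.43 against Chow_EmKCs (adjusted p = 0.00649). For Slc1a3 and for Slc1a2, 1 MCD_MoKCs library was at 0, so these fold changes depend on the pseudocount. Their ratios of means in MCD_MoKCs against MCD_EmKCs were 0.0571 and 0.214. Among all tested transporters in MCD_MoKCs against MCD_EmKCs, Slc7a11 had the highest log2 fold change and Slc1a3 the lowest, both on the log2(value + 1) scale. For each, 1 library of the lower group was at 0, so both values depend on the pseudocount.

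The transporters higher in MCD_MoKCs than in Chow_EmKCs were the taurine transporter Slc6a6, the cationic amino acid transporter Slc7a1 (CAT1) and the light chain Slc7a6 (y+LAT2). Slc7a6 averaged 280.2 ± 52.5 normalised reads in MCD_MoKCs, 154 ± 85.8 in MCD_EmKCs and 66.5 ± 21.4 in Chow_EmKCs (SD, n = 7, 6 and 6). All MCD_MoKCs libraries were above all chow libraries, with a log2 fold change of 2.10 (SE 0.37, adjusted p = 0.000151 by limma). Slc7a1 was at 192 ± 121 in MCD_MoKCs, 245 ± 217 in MCD_EmKCs and 39.1 ± 37.4 in Chow_EmKCs, with overlap, and its log2 fold change in MCD_MoKCs against Chow_EmKCs was 2.75 (adjusted p = 0.0116). Slc6a6 was at 6401 ± 713, 5621 ± 532 and 4384 ± 573 in the same order, a log2 fold change of 0.55 in MCD_MoKCs against Chow_EmKCs (adjusted p = 0.00157).

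Of 19 lysosomal and mitochondrial amino acid transporters, 17 were tested. Mfsd12, which brings cysteine into lysosomes and melanosomes, passed in all 3 comparisons. It averaged 4975 ± 708 normalised reads in MCD_MoKCs, 2358 ± 378 in MCD_EmKCs and 683 ± 415 in Chow_EmKCs (SD, n = 7, 6 and 6), and no 2 groups overlapped. Its log2 fold changes were 1.99 in MCD_EmKCs against Chow_EmKCs (limma adjusted p = 1.92e-05), 1.08 in MCD_MoKCs against MCD_EmKCs (0.00481) and 3.07 in MCD_MoKCs against Chow_EmKCs (9.63e-10). The only other limma call on this list was Slc15a3, a lysosomal carrier of peptides and histidine, at 0.55 in MCD_MoKCs against Chow_EmKCs (0.0098). The list's medians were 0.14, 0.04 and 0.15.

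Genes that use arginine, cystine and glutamine were counted next, with 13 of 17 tested. In MCD_EmKCs against Chow_EmKCs, 2 rose, where 2.5% of all genes tested were called higher and 1.58% lower. None was called lower by limma, edgeR or DESeq2, with 2 lower at an unadjusted limma p under 0.05. The genes that rose were Odc1, the first enzyme of polyamine synthesis (0.88, limma adjusted p = 0.0192), and Gclc, the catalytic subunit of the first enzyme of glutathione synthesis (0.89, adjusted p = 0.0188). In MCD_MoKCs against Chow_EmKCs, 4 were higher and 2 lower, where 8.68% of all genes tested were higher and 8.08% lower. Gclm, the partner subunit of Gclc, averaged 3362 ± 835 normalised reads in MCD_MoKCs, 2259 ± 577 in MCD_EmKCs and 1443 ± 147 in Chow_EmKCs (SD, n = 7, 6 and 6), a log2 fold change of 1.19 in MCD_MoKCs against Chow_EmKCs (adjusted p = 2.05e-05). Gclc was at 1.14 (adjusted p = 0.000293) and Odc1 at 0.98 (adjusted p = 0.00159), while glutamine synthetase Glul was at -0.70 (adjusted p = 0.00935) and the gamma-glutamyl transferase Ggt5 at -1.72 (adjusted p = 0.0026). The fourth gene that was higher was asparagine synthetase, Asns, with 333 reads in MCD_MoKCs, 60 in MCD_EmKCs and 0 in all 6 Chow_EmKCs libraries. A fixed floor of 3 reads over the chow group served as a bound, and against it the MCD_MoKCs mean of Asns was 103-fold higher. Of the 7 MCD_MoKCs libraries, 6 lay above all chow libraries, and the ranges overlapped. Asns passed the filter on low values through MCD libraries only, so a difference from chow was built into its passing. It was below the abundance asked of named genes and is named because a count rests on it.

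Set against MCD_EmKCs, MCD_MoKCs had 2 genes of this list higher and 2 lower, where 5.64% of all genes tested were higher and 4.9% lower. Glutathione synthetase Gss was at 0.91 (limma adjusted p = 0.00753) and Gclm at 0.59 (adjusted p = 0.0357). The mitochondrial arginase Arg2 was at -1.27 (adjusted p = 0.000621), with means of 961 ± 259 in MCD_MoKCs and 2365 ± 1029.7 in MCD_EmKCs, and Glul was at -0.81 (adjusted p = 0.00454). The list's medians were 0.20 in MCD_EmKCs against Chow_EmKCs, 0.09 in MCD_MoKCs against MCD_EmKCs and 0.25 in MCD_MoKCs against Chow_EmKCs, also with Asns at its bound. Single libraries decided some of these calls. Odc1 in MCD_EmKCs was lost without MCD_EmKCs 5 or Chow_EmKCs 5 (adjusted p from 0.0558 to 0.057), and Gclc without MCD_EmKCs 4, Chow_EmKCs 1 or Chow_EmKCs 6 (from 0.0506 to 0.0577). Gclm in MCD_MoKCs against MCD_EmKCs was lost without MCD_MoKCs 2, 3, 5 or 7 or MCD_EmKCs 1, 2 or 5 (from 0.0545 to 0.109), and edgeR did not call it (0.0534).

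The last list holds regulators and targets of the response to amino acid shortage, with 13 of 15 tested. Its members did not move as 1 block. Of all genes tested, 2.5% were called higher and 1.58% lower in MCD_EmKCs against Chow_EmKCs. Against Chow_EmKCs, 4 rose in MCD_EmKCs, the transcription factors Atf3 (0.67, limma adjusted p = 0.00617) and Myc (1.03, adjusted p = 0.00578), the mTORC1 inhibitor Ddit4 (1.86, adjusted p = 0.0143) and the mitochondrial folate enzyme Mthfd2 (1.67, adjusted p = 0.028). The leucine sensor Sesn2 (-0.75, adjusted p = 0.0328) and the serine hydroxymethyltransferase Shmt2 (-1.01, adjusted p = 0.0199) fell. Atf4, the central factor of the response, had 2869 ± 770 normalised reads in MCD_MoKCs, 2965 ± 750.4 in MCD_EmKCs and 2060 ± 325 in Chow_EmKCs (SD, n = 7, 6 and 6) and passed in none, with log2 fold changes of 0.50 in MCD_EmKCs against Chow_EmKCs (adjusted p = 0.166) and 0.46 in MCD_MoKCs against Chow_EmKCs (adjusted p = 0.0962).

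In MCD_MoKCs against Chow_EmKCs 5 genes of this list were higher and 1 lower, where 8.68% of all genes tested were higher and 8.08% lower. Mthfd2 averaged 300.4 ± 155 normalised reads in MCD_MoKCs, 179 ± 38.1 in MCD_EmKCs and 64.9 ± 39.7 in Chow_EmKCs, a log2 fold change of 2.26 (limma adjusted p = 0.000318). Nfe2l2, which encodes the antioxidant factor NRF2, was at 0.68 (adjusted p = 0.000467), Myc at 0.77 (adjusted p = 0.0116), Atf3 at 1.13 (adjusted p = 1.22e-06) and Sesn2 at -1.01 (adjusted p = 0.00044). The fifth gene that was higher, the serine synthesis enzyme Psat1, was below the abundance asked of named genes, and neither edgeR (adjusted p = 0.187) nor DESeq2 (0.0871) called it. In MCD_MoKCs against MCD_EmKCs, Atf3 (0.45, adjusted p = 0.0368) and Shmt2 (0.86, adjusted p = 0.0226) were higher and Ddit4 was lower (-1.71, adjusted p = 0.00923). The list's medians were 0.43 in MCD_EmKCs against Chow_EmKCs, 0.34 in MCD_MoKCs against MCD_EmKCs and 0.16 in MCD_MoKCs against Chow_EmKCs.

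Some of these calls also turned on single libraries. For the diet comparison in EmKCs, Mthfd2 was lost without MCD_EmKCs 1, 4 or 5 or Chow_EmKCs 1 or 5 (limma adjusted p from 0.0504 to 0.078), and edgeR did not call it (0.0619). Sesn2 was lost without MCD_EmKCs 2, 3, 4 or 6 or Chow_EmKCs 1, 3, 5 or 6 (from 0.0513 to 0.0878), and Shmt2 without MCD_EmKCs 6 or Chow_EmKCs 6 (from 0.0548 to 0.0599). Between MCD_MoKCs and MCD_EmKCs, Shmt2 was lost without MCD_EmKCs 4 or 6 (from 0.0523 to 0.0701), and Atf3 without MCD_MoKCs 1, 2, 3, 5 or 6 or MCD_EmKCs 2, 4 or 6 (from 0.0502 to 0.0965), and edgeR did not call Atf3 there (0.0649).

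**Figure D5:**
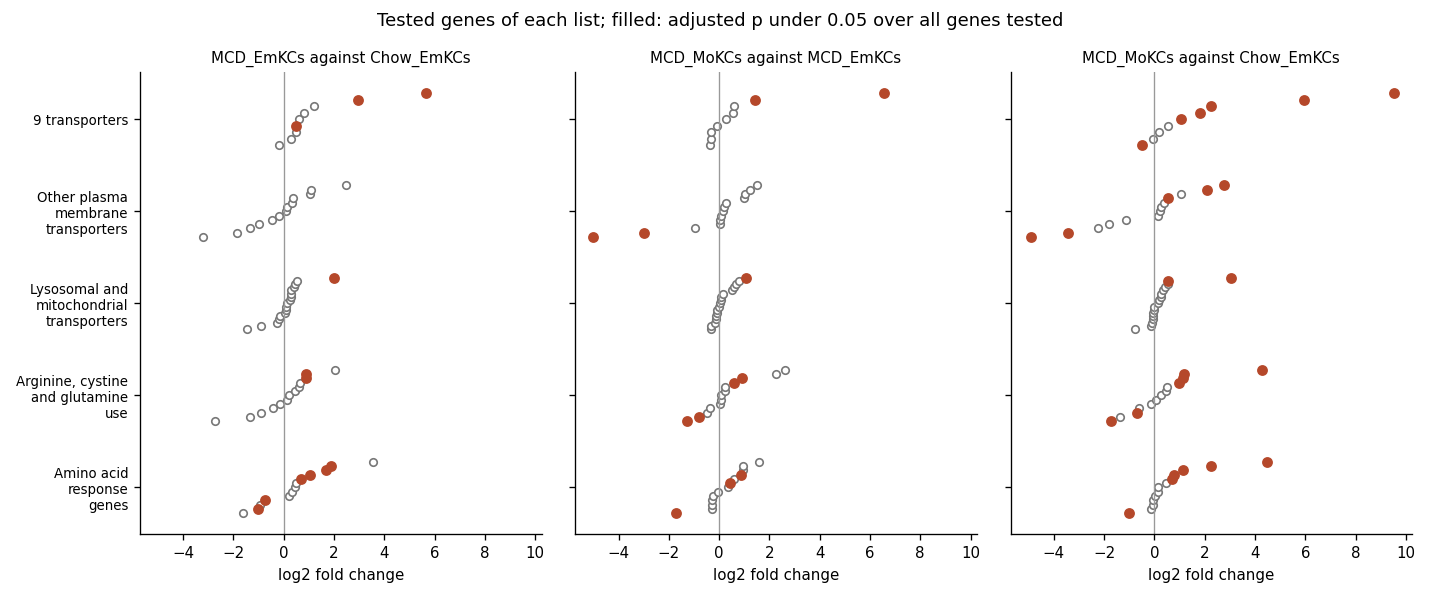
Log2 fold change (horizontal axis, log2 scale) of every tested gene of the 9 transporters and of each other list, 1 panel per comparison; filled points passed an adjusted p of 0.05 over all genes tested. In MCD_EmKCs against Chow_EmKCs no other plasma membrane transporter is filled, and in MCD_MoKCs the lowest points of that list are Slc1a3 and Slc1a2.

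For the 3 members called in MCD_EmKCs against Chow_EmKCs, the genes with the most similar profile over the 19 libraries were found among 9661 genes by the root-mean-square difference of centred log2 values. Nearest to Slc7a5 were Fam129b (1.16), Ocstamp (1.17) and the metalloelastase Mmp12 (1.22), where Slc7a5's own root-mean-square deviation was 2.92. Mmp12 averaged 23994 normalised reads in MCD_MoKCs, 11803 in MCD_EmKCs and 242 in Chow_EmKCs. Nearest to Slc7a11 were Emp1 (1.26), Gm6166 (1.49) and Zc3h12c (1.50), where its own deviation was 4.28. Emp1 averaged 343 in MCD_MoKCs and 9.09 in MCD_EmKCs and was at 0 in every chow library. Nearest to Slc3a2 were the cargo receptor Lman2 (0.16), the lysosomal membrane protein Lamp1 (0.17) and the proton pump subunit Atp6v1b2 (0.17), where its own deviation was 0.27. The points share libraries and depth, and these values are descriptions.

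Some markers of other cells were higher in the MCD groups, while others of the same lists were not. In MCD_EmKCs against Chow_EmKCs, where 3 transporters rose, limma called 2 of the 6 monocyte markers higher, Itgax (4.60, adjusted p = 6.93e-08) and Ccr2 (3.48, adjusted p = 0.0488). It also called 1 of the 6 sinusoidal endothelial markers higher, Lyve1 (2.58, adjusted p = 0.000526). Of the 4 platelet markers 2 were tested, and 1, Treml1, was higher (3.98, adjusted p = 0.0415). The other members of these lists did not all rise. Means in MCD_EmKCs and Chow_EmKCs were 22.8 and 60.9 for Cx3cr1, 1148 and 1504 for Pecam1, and 1.45 and 23.0 for Gp1ba. Limma called none of the tested markers on these lists lower in this comparison, and the untested platelet markers could not be called. The endothelial markers summed to 2601 to 9328 normalised reads in MCD_MoKCs, 6620 to 9410 in MCD_EmKCs and 7038 to 8974 in Chow_EmKCs, and the platelet markers to 6.65 to 522, 16.6 to 325 and 17.7 to 173 in the same order. No marker of these lists was at 0 in a whole group except Ly6c2.

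In MCD_MoKCs, 5 transporters were higher than in Chow_EmKCs. In the same comparison limma called higher 4 of 6 tested monocyte markers, 3 of 6 T and NK cell markers and 3 of 3 neutrophil markers. Also higher were 4 of 6 endothelial markers, the platelet marker Treml1 (1 of 2 tested) and the stellate cell marker Col3a1 (1 of 4 tested). The endothelial markers Stab2 and Pecam1 were lower. The 8 T and NK cell markers summed to 302 to 548 normalised reads in MCD_MoKCs, 1.29 to 171 in MCD_EmKCs and 51.5 to 82.0 in Chow_EmKCs, with Cd8a at 0 in all MCD_EmKCs and Ncr1 at 0 in all Chow_EmKCs libraries. The 6 monocyte markers summed to 5940 to 10577 in MCD_MoKCs, 495 to 976 in MCD_EmKCs and 168 to 486 in Chow_EmKCs, with Ly6c2 at 0 in all MCD_EmKCs libraries. The 4 neutrophil markers summed to 73.8 to 2180 in MCD_MoKCs, 34.3 to 204 in MCD_EmKCs and 15.6 to 151 in Chow_EmKCs. The 8 Kupffer cell markers were lower in MCD_MoKCs, at 66621 to 105489, than in MCD_EmKCs, at 317403 to 368122, and in Chow_EmKCs, at 347538 to 441358. In MCD_MoKCs against MCD_EmKCs, where Slc7a11 and Slc1a5 were higher, limma called higher 5 of 6 tested monocyte markers and 3 of 6 T and NK cell markers. Clec4g, Egfl7, Cd79a and Retnlg were also higher there, and Stab2 and Pecam1 lower. No tested hepatocyte, stellate cell, platelet or cholangiocyte marker was called in that comparison. The part of such cells in the transporter results was not tested.

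The 8 hepatocyte markers summed to 442 to 1087 normalised reads in MCD_MoKCs, 477 to 2494 in MCD_EmKCs and 3246 to 10473 in Chow_EmKCs. The part of hepatocyte transcripts in the transporter results was not tested. The mitochondrial share of reads was 0.244 to 0.729% in MCD_MoKCs, 0.155 to 0.317% in MCD_EmKCs and 0.511 to 1.05% in Chow_EmKCs. Its part in the results was not tested.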

How the data were processed

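The 9 transporters and the other gene lists were chosen with earlier results of these data known. Kupffer cell subsets were sorted from collagenase-digested livers and sequenced as SMART-seq libraries, per the labels' protocols. The authors deposited 1 table of normalised signal for 33919 gene identifiers in 19 libraries, and 29062 identifiers matched a symbol. STAR, DESeq2 and the build mm10 are named in the submitters' processing notes. The tool that counted reads, and whether it used strand, is not given in the sources used here. Within each library the values were whole multiples of 1 step (100% within 0.001 reads), so reads could be recovered. In Chow_EmKCs 1 that step was close to 1 (0.990), where a table rounded to whole numbers would look alike, but its values are not rounded. Reads carry no molecular identifiers, so the spread between libraries, not counting error, was used.

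Tests used limma (3.58.1, under R 4.3.3) with its trend and robust options. Values entered as log2(value + 1), for 14875 genes with at least 10 in at least 6 libraries. A single fit of group means covered all 19 libraries, and p-values were two-sided and Benjamini-Hochberg adjusted over all genes tested at 0.05. The fit was checked on simulated data. Fold changes are on the log2(value + 1) scale. Alternatives included edgeR (4.0.16) and DESeq2 (1.42.0) on the recovered reads, TMM scaling, pseudocounts of 0.5 and 5, no filter, sets of library numbers and each library left out. Positions and merged exon lengths are from GENCODE M21 (mm10). Of the other lists, genes called and at 10 CPM or more in the higher group were named, at most 4 up and 4 down per list and comparison. No pairing by replicate number was seen, and whether libraries of different groups share an animal is not stated.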

Additional observations from a re-analysis of the deposited data

Results flagged for a closer look

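A library was set apart by Dixon's test when its gap to the nearest library of its group took up too large a share of the group's range. Of 27 sets of values, the 9 transporters in 3 groups, 6 met this. The test's rate of about 1 in 20 by chance is for roughly normal values, so the 6 cannot be read against it: Slc7a11 in Chow_EmKCs has 5 of 6 libraries at 0, so its only library with reads stands apart by construction, and Slc7a5 there has 2 at 0. Slc7a5 was at 21.9 normalised reads in Chow_EmKCs 5, with the next chow library at 6.21, and without it the ratio of means against Chow_EmKCs was 75.3 for MCD_EmKCs and 104 for MCD_MoKCs, in place of 32.4 and 44.8. Slc3a2 was at 11912 in Chow_EmKCs 3, with the next at 9073. Slc7a11 was at 85.7 in MCD_EmKCs 6, with the next at 27.3 (without it MCD_MoKCs were 88.1 times MCD_EmKCs, in place of 44.4), and at 8.17 in Chow_EmKCs 6, with the other 5 chow libraries at 0. MCD_MoKCs 5 was lowest of its group for both members of the chromosome 14 pair: Slc7a7 was at 929, with the next library at 1348, and Slc7a8 at 4212, with the next at 6282. The calls of Slc7a5 in both MCD groups against Chow_EmKCs and of Slc7a11 in MCD_MoKCs were kept without each of these libraries, and the effect of leaving them out on the other calls is given with each gene.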

How the results depend on the processing

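Of 720 values of single transporters under other settings, 665 kept their direction and their side of the threshold, 31 lost a call, 18 gained one and 6 changed sign. The sign changes were all in values that had not passed: Slc38a2 in MCD_EmKCs against Chow_EmKCs (-0.30) and Slc38a1 in MCD_MoKCs against MCD_EmKCs (0.27) among library numbers up to 33, Slc1a5 in MCD_EmKCs against Chow_EmKCs (-0.18) among numbers from 37, Slc38a1 in MCD_MoKCs against MCD_EmKCs without MCD_EmKCs 5 (0.0019, where leaving out 1 library gave -0.2311 to 0.0019), and Slc7a8 in MCD_MoKCs against Chow_EmKCs without MCD_MoKCs 5 (0.0375, in a range of -0.1103 to 0.0375) and in MCD_MoKCs 1 to 3 alone (0.10). The cause of these was not tested. In MCD_EmKCs against Chow_EmKCs, DESeq2 and MCD_EmKCs 3 to 6 alone each called 5 members, and leaving out 1 library gave 1 to 3. In MCD_MoKCs against MCD_EmKCs, numbers up to 33 and MCD_MoKCs 1 to 3 alone each called 1 member, and leaving out 1 library gave 2 throughout. In MCD_MoKCs against Chow_EmKCs leaving out 1 library gave 5 to 7. For DESeq2, MCD_EmKCs 3 to 6 alone and MCD_MoKCs 1 to 3 alone, the number of all genes called is not given here. Their member counts therefore have no share of all genes beside them. With fewer libraries, numbers up to 33 called 179, 870 and 1257 genes and numbers from 37 called 263, 565 and 1288, in the order MCD_EmKCs against Chow_EmKCs, MCD_MoKCs against MCD_EmKCs and MCD_MoKCs against Chow_EmKCs. Leaving out 1 library gave 468 to 602, 1288 to 1596 and 2193 to 2456 genes in that order, and MCD_MoKCs 4 to 7 alone called 1010 in the second. Settings that keep only some MCD_MoKCs or MCD_EmKCs libraries were chosen after seeing the data. TMM scaling moved the median of all genes by less than 0.1 on the log2 scale.

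Same-numbered replicates of different groups did not deviate together (correlations from -0.0743 to 0.0759 over 18 pairs, 0 of them over 0.1), so the numbers were not taken as pairs. With a replicate block, 4, 2 and 5 members were called in the same order of comparisons, and the number of all genes called is not given here. The block added Slc7a2 in MCD_EmKCs against Chow_EmKCs (adjusted p = 0.0206) and lost Slc7a7 in MCD_MoKCs against Chow_EmKCs (log2 fold change -0.50, adjusted p = 0.0549). Depth limits Slc7a5 and Slc7a11 on chow, with 38 and 7 reads over 6 libraries.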
